A study of Mus musculus with 7 samples.

Results

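Liver gene expression 2 weeks after hepatocyte deletion of Dicer1 was compared with that of control livers, on 5 of the 7 arrays of the series. The 5 arrays were the 3 control livers, labelled 0 weeks, and the 2 livers taken 2 weeks after AAV8-Ttr-Cre, and all 16819 genes that could be named were compared. Each gene was read from 1 probe set, the one with the highest mean over the 7 arrays. All mice were males that carried loxP sites on both Dicer1 alleles (Dicer1 fl/fl), controls included, and their background was mixed from the strains 129S4 and C57BL/6. The treated mice received, at 8 to 10 weeks of age, an adeno-associated virus of serotype 8 that makes Cre recombinase from a transthyretin (Ttr) promoter, which is active in hepatocytes. Livers were taken after a 4 h fast and flash frozen. The series has no liver given a virus that lacks Cre and no control liver taken at 2 weeks, so the virus, Cre itself, the elapsed weeks and the loss of Dicer1 cannot be told apart. The 2 arrays at 4 weeks served only to share the estimate of the spread and for values set beside single genes.

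Dicer1 is the ribonuclease that trims precursor hairpins into mature microRNAs. A mature microRNA pairs through its seed, bases 2 to 8, with messenger RNAs, which are then repressed and degraded by a complex of Argonaute and Tnrc6 proteins. In hepatocytes miR-122 is the dominant microRNA, and the title of the series names miR-29a and its target Lpl, lipoprotein lipase. The mature sequences of the miR-29 family and of let-7a, taken from RefSeq on the GRCm38.p6 build, are shown because 2 of the gene lists below are their reported targets. Capitals mark the seed, which the 3 miR-29 members share.
miR-29a-3p (chr6:31062673-31062694, minus strand): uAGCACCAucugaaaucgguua
miR-29b-3p (chr1:195037091-195037113, plus strand): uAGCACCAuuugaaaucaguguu
miR-29c-3p (chr1:195037600-195037621, plus strand): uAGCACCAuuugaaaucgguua
let-7a-5p (chr13:48538239-48538260, minus strand): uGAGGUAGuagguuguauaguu

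The values are log2 signals, so a difference of 1 is a 2-fold change. The median log2 signal of the 7 arrays lay between 7.073 and 7.090. The first principal component, with 62% of the variance, placed the controls between -23.81 and -22.41, 2 week replicate 1 at 6.56 and 2 week replicate 2 at 24.26. Hepatocyte markers identified the tissue: albumin (Alb) read 14.49 to 14.51 on the controls and 14.46 and 14.49 at 2 weeks. The mean of the 5 hepatocyte markers was 14.307 to 14.353 on the controls and 14.127 to 14.177 at 2 weeks, and without the amino acid enzyme Tat it was 14.368 to 14.412 and 14.296 to 14.346. Of the marker lists for other cell types, the mean of the 5 stellate cell markers was 8.565 to 8.593 on the controls and 8.747 to 8.816 at 2 weeks. The lists for bile duct, T and NK cells, macrophages, endothelium and the other cell types overlapped between the groups, and 0 of the 41 markers in the cell type lists passed the test in limma, with 5 at an unadjusted p under 0.05, 2 of them stellate. In whole liver RNA, fewer cells of a type and less RNA per cell cannot be told apart.

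Dicer1 fell on both 2 week arrays and more on replicate 2. It read 8.73, 8.71 and 8.58 on the controls and 8.03 and 7.79 on replicates 1 and 2. The 2 week arrays were both below the lowest control, 1.56-fold below the control mean on replicate 1 and 1.84-fold below it on replicate 2. The change was -0.76 on the log2 scale (SE 0.09, adjusted p = 0.0158 by limma, n = 3 and 2). The adjusted p lay between 0.014 and 0.0731 when each of the 5 arrays was left out in turn, and it stayed under 0.05 only without 2 week replicate 1. Where the Dicer1 probes lie relative to the deleted exon is not stated in the sources used here, and a probe outside the deleted part would not check the labels.

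At 2 weeks 997 genes passed an adjusted p of 0.05 in limma, which is 5.93% of the genes compared. Of these, 582 were higher (3.46%) and 415 were lower (2.47%), by a median of 0.58 and -0.58 on the log2 scale, and the smallest called change was 0.203 in size. The control and 2 week arrays did not overlap in any of the 997, against 5862 genes, or 34.9%, among all that were compared. Where a called gene is said below to lie above or below every control, the same holds for all 997. At least 2-fold changes were found in 96 higher genes (0.571%) and 52 lower genes (0.309%). The median change over all genes was -0.0024. The shares of 3.46% and 2.47% are the background for the counts of higher and lower members in each gene list in the fit to all arrays.

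Among the called genes the 2 arrays agreed in direction and differed in size. No called gene lay on the other side of the control mean on either array, which follows from the lack of overlap in all 997. Uncalled genes could differ in direction, as did Hsd3b5, at 0.43 on replicate 1 and -4.17 on replicate 2. Among the 582 higher genes the change was larger on replicate 2 in 396 and larger on replicate 1 in 186, with medians of 0.53 on replicate 1 and 0.61 on replicate 2. Among the 415 lower genes it was larger on replicate 2 in 316 and on replicate 1 in 98, with medians of -0.48 and -0.62. In 721 called genes the 2 arrays were within 0.25 of each other, in 62 they were over 0.5 apart, and in 6 over 1 apart. Over all genes, 958 differed by over 0.5 between the 2 week arrays, against 219 to 276 between pairs of control arrays and 427 between the 4 week arrays. Replicate 2 had 442 genes at least 2-fold from the control mean and replicate 1 had 192. Of these, 126 were at least 2-fold on both arrays in the same direction, and 24 of the 126 did not pass.

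**Figure D1:**
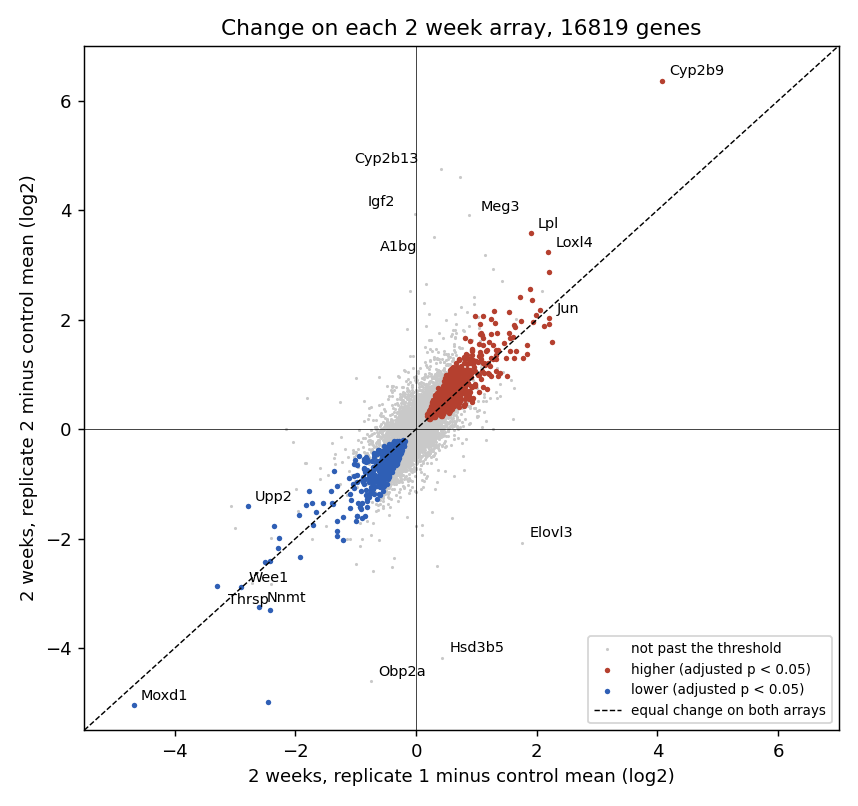
Each point is 1 of 16819 genes, by its log2 difference from the control mean on 2 week replicate 1 (horizontal axis) and replicate 2 (vertical axis). The dashed line marks equal change, red and blue points are the 582 higher and 415 lower genes, and grey points did not pass, among them Igf2 and Hsd3b5, which differed from the controls mainly on replicate 2.

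The number of calls changed with each array left out. It was 190, 127 and 41 genes without control array 1, 2 or 3, 2168 without 2 week replicate 1, and 329 without 2 week replicate 2, where the remaining 2 week array is assumed to vary like the other groups. In those 5 fits 0 of the 997 genes changed sign, 38 passed in every fit, and 189 passed in none of them. The lack of sign changes was fixed in advance, because the control and 2 week arrays of the 997 genes did not overlap. Without control array 1, 2 or 3, 120, 83 and 24 of all genes were higher and 70, 44 and 17 lower. List counts given below for a fit that left out an array have as background the number of all genes called in that fit. The 38 genes, 23 higher and 15 lower, are described first. Like the single list members named further on, they were chosen after their values were seen.

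Of the 15 lower genes among the 38, Moxd1, a relative of dopamine beta-hydroxylase, fell the most. It read 10.55, 10.99 and 10.72 on the controls and 6.08 and 5.72 at 2 weeks, a fall of 25.6-fold on replicate 1 and 32.9-fold on replicate 2. The gene with the smallest p was Wee1, a kinase that holds back mitosis and is transcribed under the clock. Wee1 read 9.64, 9.74 and 9.75 on the controls and 6.81 and 6.82 at 2 weeks, and fell by 2.89 log2 units with an SE of 0.05 (adjusted p = 8.51e-05, limma). Its 2 week arrays were almost equal, 7.48-fold and 7.40-fold below the control mean. Thrsp, a lipogenic regulator that follows thyroid hormone and carbohydrate, read 12.86, 12.99 and 12.89, then 9.62 and 10.05, a fall of 8.45-fold. Nrg4, a growth factor for the receptor Erbb4, read 8.38, 8.69 and 8.56, then 6.05 and 6.11, a fall of 5.53-fold. In each of these 4 genes both 2 week arrays lay more than 2 log2 units below the lowest control.

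The other lower genes of the 38 fell less. Map2k6, a kinase that activates p38, fell 2.73-fold, Crcp 2.28-fold and the Golgi membrane protein gene Paqr3 2.06-fold. Pdxk, which phosphorylates vitamin B6, fell 1.90-fold, and the sugar transporter gene Slc50a1 1.89-fold. The dehydrogenase gene Bdh2 fell 1.88-fold and Asl, the urea cycle's argininosuccinate lyase, 1.75-fold. Sfxn1, a mitochondrial serine carrier, fell 1.73-fold. Dbp, Usp2 and Per3 belong to the clock and are given with it. The 2 week arrays were close together in these genes: for Bdh2 they read 8.52 and 8.49 against 9.31 to 9.51 on the controls, and for Asl 11.88 and 11.83 against 12.63 to 12.72.

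Of the 23 higher genes among the 38, Cldn1, a tight junction claudin, and Jun, a subunit of the transcription factor AP-1, rose the most. Cldn1 read 9.17, 9.33 and 9.45 on the controls and 11.37 and 11.50 at 2 weeks, 4.15-fold and 4.54-fold above the control mean. Jun read 8.18, 8.02 and 7.83, then 10.21 and 10.03, 4.60-fold and 4.06-fold above it. Rnf125, a ubiquitin ligase, rose 4.00-fold and Fga, the fibrinogen alpha chain, 3.36-fold. For all of these genes the 2 week arrays were above the highest control by more than 1.5 log2 units. Insig2, an anchor that holds the sterol sensor complex in the endoplasmic reticulum, rose 2.85-fold. Tab2, an adaptor of the kinase Tak1, rose 2.53-fold and Dcaf7 2.23-fold. Tnrc6a, the Argonaute partner that carries out silencing, rose 2.23-fold; it read 8.50, 8.52 and 8.64 on the controls and 9.69 and 9.72 at 2 weeks.

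Of 3 called genes that act on coenzyme Q, the electron carrier of the respiratory chain, 2 were higher and 1 lower; they were picked after their values were seen and stand for no list. Coq8a, a kinase-like protein that its synthesis needs, read 10.65, 10.51 and 10.59 on the controls and 11.90 and 12.02 at 2 weeks, a rise of 2.60-fold. Coq3, a methyltransferase of its synthesis, read 8.99, 9.16 and 9.27, then 10.38 and 10.43, a rise of 2.41-fold. Coq10b, a binding protein of coenzyme Q, was lower, at 9.96, 9.69 and 10.19 on the controls and 8.29 and 8.44 at 2 weeks. Coq3 and Coq8a are among the 38, while Coq10b (adjusted p = 0.0134, limma) missed the threshold without control array 1, control array 3 or 2 week replicate 2, with adjusted p up to 0.0637. Arntl is given with the clock. The others of the 38 were Gm4952 (3.13-fold higher), Fam160a1 (2.47-fold), the bicarbonate transporter gene Slc4a4 (2.11-fold) and the RNA-binding protein gene Cpeb4 (2.02-fold). Smaller rises were those of the activin antagonist follistatin (Fst, 1.96-fold), Dnajc13 (1.90-fold), Wdr91 (1.81-fold), the retinal reductase Dhrs3 (1.78-fold) and Sorbs2 (1.75-fold). The smallest were those of Rnf167 (1.68-fold), the DNA polymerase zeta subunit Rev3l (1.57-fold) and the mannose-binding lectin Mbl1 (1.5-fold).

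**Figure D2:**
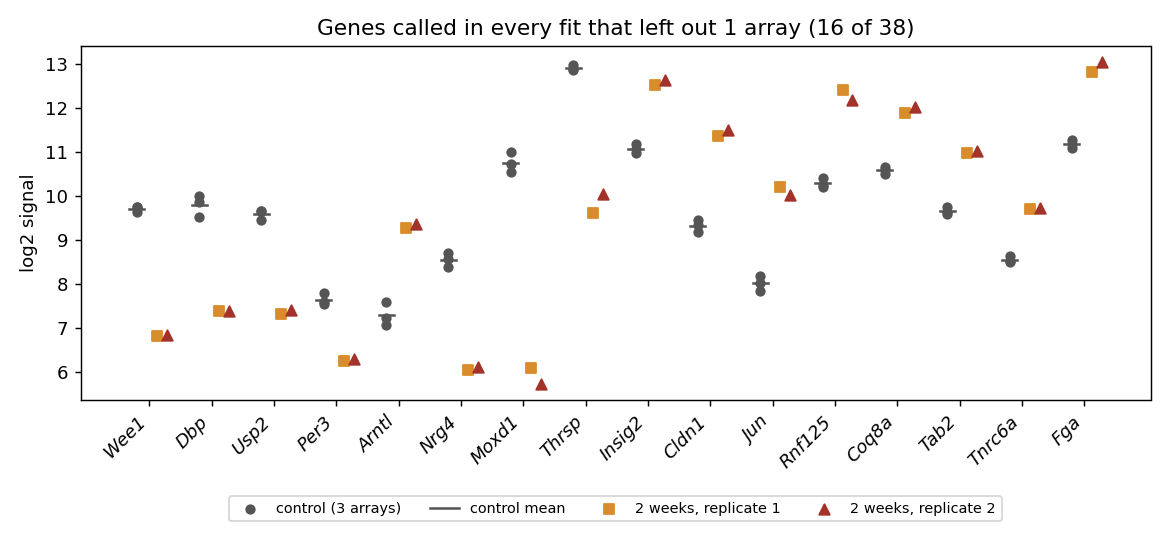
Log2 signal of 16 of the 38 genes that passed in every fit that left out 1 array. Grey points are the 3 control arrays with their mean as a line, squares 2 week replicate 1 and triangles replicate 2; the squares and triangles lie close together and apart from the controls, as for Wee1 (6.81 and 6.82 against 9.64 to 9.75).

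The largest rises and falls were ranked with predicted genes left out. Below the 10 largest rises, which include Cyp2b9, Lpl, Loxl4 and Chka, the next 10 lay between 3.23-fold and 4.12-fold. They were Arntl, Rnf125, Dusp6, Osgin1, Ddc, Btg2, Denn2b, Fga, Khnyn and Clpx. Dusp6, a phosphatase that switches off the kinase Erk, read 8.71, 8.57 and 8.37 on the controls and 10.48 and 10.52 at 2 weeks, a rise of 3.86-fold (adjusted p = 0.00732, limma). Osgin1, which is induced by oxidative stress, read 8.89, 8.57 and 8.73, then 10.99 and 10.32, a rise of 3.79-fold (adjusted p = 0.0171). Ddc, the aromatic amino acid decarboxylase, read 9.63, 9.35 and 8.80 on the controls and was 3.34-fold and 3.95-fold above their mean on replicates 1 and 2 (adjusted p = 0.0251). In each of these genes the 2 week arrays lay above all controls, and Osgin1 was higher on replicate 1. Btg2, an antiproliferative p53 target, rose 3.60-fold, Denn2b 3.40-fold, Khnyn 3.31-fold and Clpx, the unfoldase of a mitochondrial protease, 3.23-fold. Of the 20 largest rises 15 were larger on replicate 2 and 5 on replicate 1. Without control array 1, 2 or 3, 10, 8 and 5 of the 20 passed, and without 2 week replicate 1 or 2, 20 and 13.

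The falls ranked 11 to 20 lay between 2.82-fold and 4.27-fold. Upp2, a liver uridine phosphorylase, read 12.29, 12.13 and 12.33 on the controls and 9.46 and 10.85 at 2 weeks. It fell 6.91-fold on replicate 1 and 2.65-fold on replicate 2. Its adjusted p was 0.0404 (limma), and without control array 1, 2 or 3 it missed the threshold, at up to 0.141. Slc8a1, the sodium-calcium exchanger, fell 4.18-fold, from 7.12, 6.96 and 7.67 to 4.90 and 5.47. Srm, which makes spermidine, fell 3.09-fold, from 10.21, 10.57 and 10.24 to 9.03 and 8.40. Both were below every control on both arrays. Tspan4, a tetraspanin, fell 3.07-fold, the transcription factor gene Hes6 3.01-fold and Gpat4, which acylates glycerol 3-phosphate on the way to triglyceride, 2.82-fold. The clock genes Noct, Tef and Nr1d2 and Coq10b complete these 10. Among predicted genes, Gm21286 was 5.45-fold lower on replicate 1 and 31.5-fold lower on replicate 2 (adjusted p = 0.0478, limma), the largest fall after Moxd1. It passed only without 2 week replicate 1 when an array was left out, with adjusted p up to 0.157 otherwise. Among the 20 largest falls the change was larger on replicate 2 in 9 and on replicate 1 in 11. Without control array 1, 2 or 3, 13, 13 and 6 of the 20 passed, and without 2 week replicate 1 or 2, 19 and 16.

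The circadian clock is a loop in which Clock and Arntl (Bmal1) drive their own repressors, the Per and Cry genes, through E-boxes, while Rora and the Nr1d receptors set Arntl itself. Of 13 core clock genes measured, 3 were higher and 4 lower, and of 13 output genes 0 were higher and 5 lower, against 3.46% and 2.47% of all genes. The activators rose: Arntl read 7.57, 7.21 and 7.05 on the controls and 9.27 and 9.37 at 2 weeks, a rise of 4.12-fold, and Clock rose 1.68-fold. Among the receptors Rora rose 1.49-fold, while Nr1d2 fell 2.90-fold and Nr1d1 1.63-fold. Of the 6 repressors measured, 4 were below the control mean on both 2 week arrays and 1 was above it on both. Among them Ciart read 8.58, 8.48 and 8.74, then 6.18 and 5.30, a fall of 7.26-fold, and Per3 fell 2.59-fold. Neither Cry1 nor Cry2 passed. Per1 and Per2 did not pass, at -1.15 and -0.68 on the log2 scale (adjusted p = 0.0647 and 0.0504, limma). The output genes Dbp, Tef, Usp2, Noct and Wee1 fell between 3.32-fold and 7.44-fold. Dbp and Tef are activators that bind D-boxes, and their competitor Nfil3 stood at 0.91 (adjusted p = 0.065).

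Clock output genes, unlike most called genes, were mostly further from the controls on replicate 1, with only 5 of 13 further on replicate 2. The median over the 13 output genes was -1.22 on replicate 1 and -0.59 on replicate 2. Per1 was 1.58 below the control mean on replicate 1 and 0.71 below it on replicate 2. Dbp was nearly equal on both, at 7.38 and 7.39, against 9.51, 9.87 and 10.00 on the controls. Of the output genes 5, 4 and 3 passed without control array 1, 2 or 3, and 6 and 5 without 2 week replicate 1 or 2; of the core genes 3, 3 and 1 were lower without those controls and 4 and 5 without those 2 week arrays. Arntl, Per3, Dbp, Usp2 and Wee1 passed in all 5. The labels give no hour of harvest.

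**Figure D3:**
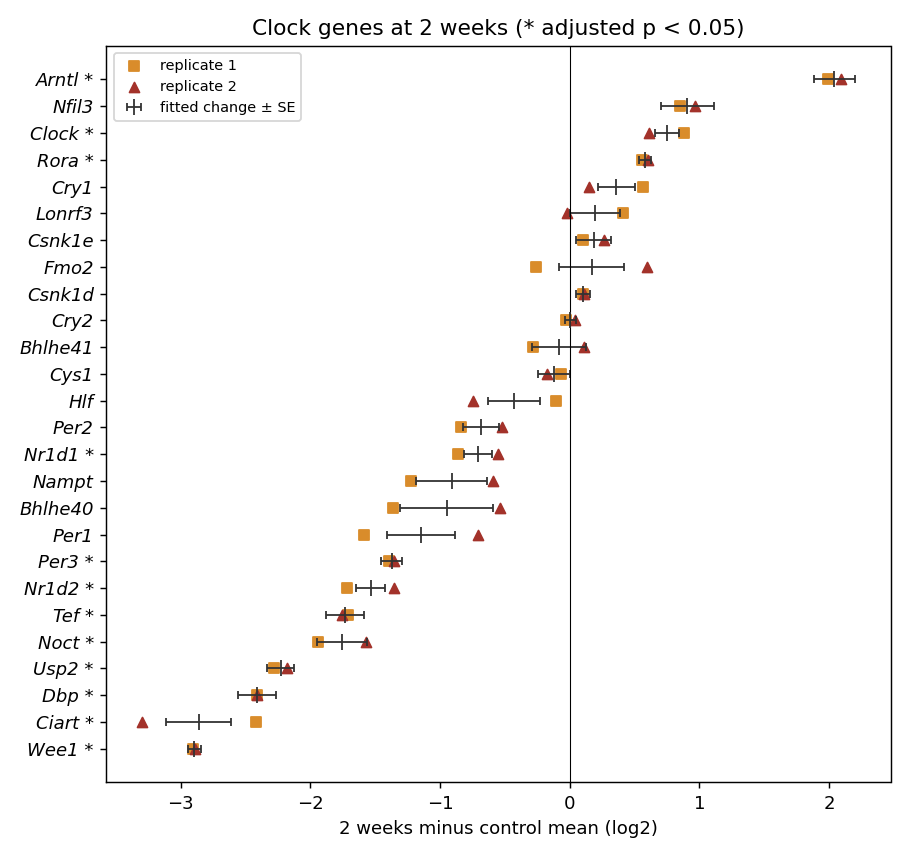
Log2 difference from the control mean of each measured clock gene, with squares for 2 week replicate 1, triangles for replicate 2, and the fitted change with its SE. Asterisks mark an adjusted p under 0.05; Arntl (2.04) lies at one end and Wee1 (-2.89) at the other.

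The promoters of all genes with a sequence, clock genes included, were searched for these elements on both strands. The windows held 300 bases around the transcription start, most of them upstream (RefSeq, GRCm38.p6). The E-box was searched as CACGTG and the D-box as TTATGTAA. The letters CACGTG stood in 16.9% of the promoters of lower genes (60 of 354 with a sequence), 9.59% of those of higher genes (44 of 459) and 9.17% of all measured genes (1215 of 13254). For TTATGTAA these shares were 0.847%, 0.654% and 0.649%. The AP-1 site TGACTCA stood in 3.11%, 2.83% and 4.12%. Of the 8 lower clock genes with a promoter sequence, Ciart and Tef held an E-box and Per3 a D-box. Of the 11 clock genes with a sequence that were not called, 4 held an E-box, and of the 3 higher ones 0 did. The windows are printed for the 3 lower clock genes in which one of these motifs was found, with the motifs in capitals.
Ciart (chr3:95882179-95882478, minus strand): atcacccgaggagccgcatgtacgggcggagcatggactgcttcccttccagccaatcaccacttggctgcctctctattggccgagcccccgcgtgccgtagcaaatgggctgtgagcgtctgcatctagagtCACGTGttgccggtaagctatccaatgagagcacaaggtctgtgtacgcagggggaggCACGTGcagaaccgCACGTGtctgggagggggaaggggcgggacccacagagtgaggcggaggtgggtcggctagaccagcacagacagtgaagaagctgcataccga
Per3 (chr4:151044616-151044915, minus strand): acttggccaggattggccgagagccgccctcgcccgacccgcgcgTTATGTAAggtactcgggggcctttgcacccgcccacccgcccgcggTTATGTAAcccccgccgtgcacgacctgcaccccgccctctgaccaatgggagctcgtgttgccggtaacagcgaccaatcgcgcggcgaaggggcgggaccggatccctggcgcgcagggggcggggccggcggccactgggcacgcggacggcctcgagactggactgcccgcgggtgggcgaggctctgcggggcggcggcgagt
Tef (chr15:81802423-81802722, plus strand): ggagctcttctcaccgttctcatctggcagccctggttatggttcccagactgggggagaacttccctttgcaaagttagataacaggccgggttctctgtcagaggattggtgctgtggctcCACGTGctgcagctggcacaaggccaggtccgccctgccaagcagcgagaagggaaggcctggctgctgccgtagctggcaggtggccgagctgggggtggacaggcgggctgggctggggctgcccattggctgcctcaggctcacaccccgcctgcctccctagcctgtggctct
The Ciart window holds 3 E-boxes, that of Per3 2 D-boxes and that of Tef 1 E-box. A second Tef window in the table, not printed, also holds 1 E-box. A match is a description of these letters only.

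Of the microRNA pathway's 18 measured genes, 4 were higher and 1, Dicer1, lower. Beside Tnrc6a, its paralog Tnrc6b rose 1.90-fold, from 8.79, 8.98 and 8.82 to 9.70 and 9.87. Cnot1, the scaffold of the deadenylase complex, rose 1.27-fold and the exonuclease Xrn1 1.23-fold. Tnrc6b missed the threshold without control array 3, at an adjusted p of 0.0573, and Cnot1 and Xrn1 in all 5 fits that left out an array. Among 29 measured reported targets of miR-29, 5 were higher and 0 lower: Lpl, the DNA methyltransferases Dnmt3a and Dnmt3b, the dioxin receptor Ahr and the collagen gene Col15a1. Lpl read 7.10, 7.36 and 7.18, then 9.11 and 10.80, which is 1.90 above the control mean on replicate 1 and 3.58 above it on replicate 2. Dnmt3b, in contrast, read 7.01, 6.87 and 6.90, then 7.97 and 7.60, and was higher on replicate 1. Of the 29 targets 0 passed without control array 1, 2 or 3. Without 2 week replicate 1, 5 were higher and 1 lower, and without replicate 2, 3 were higher. The medians of the list were 0.14 on replicate 1 and 0.21 on replicate 2.

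Reported targets of miR-122 differed more between the arrays. Of 27 measured, 8 were higher and 0 lower, with a median of 0.49, 0.23 on replicate 1 and 0.69 on replicate 2. Cyclin G1 (Ccng1) read 9.85, 9.93 and 9.95 on the controls and 11.16 and 11.65 at 2 weeks, a rise of 2.82-fold. Hemojuvelin (Hjv), a coreceptor that controls hepcidin, read 9.46, 9.78 and 9.68, then 10.82 and 11.09, a rise of 2.49-fold. The sheddases Adam10 and Adam17 rose 1.98-fold and 1.59-fold, and the TGF-beta receptor gene Tgfbr1 1.56-fold. Rell1 (1.87-fold), the microtubule end-binding gene Mapre1 (1.69-fold) and the citrate synthase gene Cs (1.53-fold) complete them. All 8 were above every control on both arrays, as was every higher gene called. Of the 27 targets, called or not, 22 were further from the control mean on replicate 2. Among the 582 higher genes of the whole comparison the change was larger on replicate 2 in 396. Of the list 1, 1 and 0 passed without control array 1, 2 or 3, and 14 and 3 without 2 week replicate 1 or 2. Of 24 reported let-7 targets, 3 were higher, among them the insulin pathway genes Irs2 and Insr, and 1, Dicer1 itself, was lower. Without control array 1, 2 or 3, 2, 1 and 0 let-7 targets were higher, and without 2 week replicate 1 or 2, 5 and 0.

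AP-1 and immediate early genes form the fast transcriptional answer to growth factors and stress. Of 29 measured, 7 were higher and 0 lower, with a median of 0.50, 0.39 on replicate 1 and 0.60 on replicate 2. Jun led the Jun family, and Jund rose 1.41-fold. Fos read 6.82, 6.55 and 7.0 on the controls and 8.14 and 8.23 at 2 weeks, a rise of 2.64-fold (adjusted p = 0.0477, limma), and Fosl2 rose 1.34-fold. The 2 week arrays were above all controls for Fos and nearly equal. Btg2, Btg1 and Dusp6 were the other called members, while Egr1 (1.24 on the log2 scale), Ier2 (1.0) and Dusp1 (0.91) did not pass (adjusted p between 0.0638 and 0.074). Jun alone passed in all 5 fits that left out an array; 3, 2 and 1 members passed without control array 1, 2 or 3, and 5 and 2 without 2 week replicate 1 or 2.

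In the EGF receptor family, which Dusp6 restrains downstream, 2 of 16 measured genes were higher and 1 lower. The ligand Nrg4 fell, as given above. The receptor Erbb3 rose 2.46-fold, from 10.40, 10.22 and 10.47 to 11.40 and 11.93. Both 2 week arrays were above every control. The call for Erbb3 (adjusted p = 0.0233, limma) remained only without 2 week replicate 1, and its adjusted p reached 0.092 in the other fits. Nrg4 passed in all 5.

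Of 22 cell junction genes measured, 5 were higher and 0 lower, against 3.46% and 2.47% of all genes. Beside Cldn1, Cldn2 rose 1.89-fold, the cingulin gene Cgn 1.70-fold, Marveld2, a protein of tricellular junctions, 1.67-fold, and beta-catenin (Ctnnb1) 1.39-fold. Cldn2 read 8.47, 8.23 and 8.21 on the controls and 9.17 and 9.27 at 2 weeks. E-cadherin (Cdh1) read 8.86, 9.16 and 9.0, then 9.67 and 10.76, and occludin (Ocln) 7.83, 7.34 and 7.80, then 8.43 and 9.47. Both of these were above the controls on each array, larger on replicate 2, and did not pass (adjusted p = 0.0832 and 0.0783, limma). Cldn1 was the 1 member that passed without control array 1, 2 or 3, and without 2 week replicate 1 or 2, 6 and 2. Of 41 matrix genes measured, 6 were higher and 0 lower: Loxl4, Spon2, Tgm2, Tgfbr1, Lamb1 and Tgfbi. The transglutaminase Tgm2 read 9.72, 9.71 and 9.67, then 10.67 and 11.76, 1.96-fold and 4.17-fold above the control mean. Stellate cells, whose markers were higher at 2 weeks by the means given above, are the main source of matrix in liver. The part of these cells in the rises was not tested. Of the 5 stellate markers 0 passed, and of the 5 fibrillar genes in the matrix list 0 were called. Of the matrix genes 1, 1 and 0 were higher without control array 1, 2 or 3, and 6 and 3 without 2 week replicate 1 or 2, with 1 lower in each of the last 2 fits.

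Several metabolic lists held called genes in both directions. In choline and phosphatidylcholine metabolism 5 of 16 measured genes were higher and 1 lower. Choline kinase (Chka) read 7.44, 7.15 and 7.15 on the controls and 9.17 and 9.60 at 2 weeks, a rise of 4.42-fold. Phospho1, a phosphatase that acts on phosphocholine and phosphoethanolamine, read 6.44, 6.65 and 6.00, then 8.57 and 8.28, a rise of 4.16-fold. Lpcat3, which remodels phosphatidylcholine, rose 1.77-fold, Cept1, which completes its synthesis, 1.37-fold and the choline dehydrogenase gene Chdh 1.27-fold. Phospho2 fell 1.31-fold. Chka missed the threshold only without control array 3, at an adjusted p of 0.0508, while of the higher members 1, 1 and 0 passed without control array 1, 2 or 3 and 4 and 1 without 2 week replicate 1 or 2.

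Of 22 NAD and nicotinamide genes measured, 0 were higher and 2 lower, and both act on nicotinamide or its riboside. Nnmt, which methylates nicotinamide, read 10.75, 10.50 and 10.50 on the controls and 7.99 and 7.33 at 2 weeks, a fall of 7.61-fold. Nmrk1, the nicotinamide riboside kinase, read 9.38, 9.70 and 9.81, then 7.70 and 7.30, a fall of 4.38-fold. Both were below every control by more than 1.5 log2 units. Nampt, which recycles nicotinamide and is also a clock output, stood at -0.91 and did not pass (adjusted p = 0.12, limma). Nnmt and Nmrk1 missed the threshold only without control array 3, at adjusted p of 0.0573 and 0.0508.

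The urea cycle and amino acid list had 0 higher and 5 lower genes of 20 measured. Beside Asl, arginase (Arg1) fell 1.42-fold, from 13.16, 13.12 and 13.17 to 12.53 and 12.77. Nags, which makes the activator of the cycle's entry step, fell 1.19-fold, the alanine transaminase Gpt2 1.73-fold and the proline dehydrogenase Prodh 1.59-fold. Tat, among the most abundant members, read 14.18, 14.06 and 14.12, then 13.25 and 13.70, and did not pass (adjusted p = 0.0712). Asl alone passed without control array 1, 2 or 3, and 4 and 3 members passed without 2 week replicate 1 or 2.

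Of 31 genes of glycolysis, gluconeogenesis and glycogen measured, 4 were higher and 5 lower. The glucose transporter Slc2a2 read 12.55, 12.65 and 12.66 on the controls and 11.77 and 11.70 at 2 weeks, a fall of 1.84-fold. Glycogen synthase (Gys2) read 12.30, 12.44 and 12.47, then 11.64 and 11.53, a fall of 1.77-fold, and liver pyruvate kinase (Pklr) 11.83, 12.34 and 12.16, then 10.74 and 10.73, a fall of 2.59-fold. In all 3 the 2 week arrays were nearly equal and below every control. Pfkfb3, which makes the activator of phosphofructokinase, fell 4.37-fold but missed the threshold in all 5 fits that left out an array (adjusted p up to 0.0987, limma). Slc37a4, the glucose 6-phosphate carrier, fell 1.60-fold. The rises were those of the insulin receptor (Insr, 1.41-fold), its substrates Irs1 (1.66-fold) and Irs2 (2.32-fold), and pyruvate carboxylase (Pcx, 1.39-fold). Irs2 read 7.87, 7.56 and 7.65, then 8.76 and 9.05. Without control array 1, 2 or 3, 2, 2 and 0 of the members were higher and 3, 2 and 0 lower; without 2 week replicate 1 or 2, 4 and 0 were higher and 5 and 3 lower.

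In fatty acid synthesis 2 of 19 measured genes were higher and 2 lower. Thrsp and the elongase Elovl6 fell, the latter 2.00-fold, from 10.23, 10.44 and 10.44 to 9.26 and 9.47. Insig2 and the carbohydrate-responsive factor Mlxipl (1.52-fold) rose. Of 26 genes of fatty acid oxidation, 1 was called: Pdk4, the kinase that turns off pyruvate dehydrogenase, rose 2.75-fold, from 7.17, 6.99 and 7.14 to 8.72 and 8.40. Of 18 lipoprotein genes, 3 were higher and 0 lower: Tm6sf2 (2.30-fold), the cholesterol exporter Abca1 (1.54-fold) and Mttp (1.34-fold), which loads lipid onto apolipoprotein B. The 2 week arrays lay outside the control range in all of these. In triglyceride assembly, the droplet coat gene Plin2 rose 1.83-fold and the acyltransferase Dgat2 fell 1.31-fold, of 27 measured. Leaving out control array 3 kept only Insig2 and Thrsp among the genes of this paragraph, and 0 of the lipoprotein genes passed without control array 1, 2 or 3 or without 2 week replicate 2.

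Most plasma protein genes of the liver were not called, and the calls were led by fibrinogen and the lectin pathway of complement. Of 31 coagulation and complement genes, 6 were higher and 0 lower. Fibrinogen alpha (Fga) read 11.19, 11.10 and 11.26 on the controls and 12.82 and 13.05 at 2 weeks. Its partner chains were high throughout and moved less: Fgg rose 1.30-fold, from 13.29, 13.32 and 13.42 to 13.72 and 13.72, and Fgb read 13.70, 13.83 and 13.76, then 13.96 and 14.02, without passing (adjusted p = 0.0785, limma). Mbl1 and its protease Masp1 (1.39-fold), complement C4b (1.28-fold) and factor XII (F12, 1.37-fold) rose. Fga and Mbl1 passed in all 5 fits that left out an array, and they were the only members that passed without control array 1, 2 or 3; 6 and 2 members were higher without 2 week replicate 1 or 2.

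In the acute phase list 6 of 32 measured genes were higher and 2 lower. Lbp, which carries bacterial lipopolysaccharide, read 11.25, 11.10 and 11.23 on the controls and 12.25 and 12.93 at 2 weeks, a rise of 2.63-fold. Stat3, the factor behind the response, rose 1.56-fold, the copper carrier Cp 1.33-fold and Itih3 1.23-fold, beside Fga and Fgg. The interleukin 6 receptor (Il6ra) fell 2.23-fold, from 10.48, 10.39 and 10.50 to 9.49 and 9.10, and the constitutive serum amyloid Saa4 fell 1.78-fold. Lcn2 read 9.32, 9.83 and 9.48, then 10.82 and 12.48, and did not pass (adjusted p = 0.0757). Whether the Saa4 probes also read other Saa genes was not tested. Without control array 1, 2 or 3, 2, 1 and 1 members were higher, and without 2 week replicate 1 or 2, 6 and 3.

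Some large differences in bile acid and metal genes missed the threshold. Cyp7a1, whose product sets the rate of bile acid synthesis, read 12.36, 12.68 and 12.67 on the controls and 10.16 and 9.74 at 2 weeks, -2.62 on the log2 scale (SE 0.55, adjusted p = 0.055, limma). Both arrays were over 2 log2 units below every control, and its 4 week arrays, which enter the shared estimate of the spread, read 8.79 and 10.75. The bile salt exporter Abcb11 and the flippase Atp8b1 rose 1.59-fold each, the only calls among 26 bile acid genes, and 0 members were higher without control array 1, 2 or 3. The metallothioneins Mt1 and Mt2, which bind zinc and copper, read 11.25, 9.69 and 11.15 and 10.28, 8.00 and 10.10 on the controls. At 2 weeks they read 8.29 and 8.71, and 6.45 and 7.66. Control array 2 lay apart from the other controls in both genes and neither passed (adjusted p = 0.066 and 0.138, limma). Without that array Mt1 passed, at an adjusted p of 0.0447. The manganese exporter Slc30a10 rose 3.04-fold, from 8.90, 8.91 and 8.62 to 10.65 and 10.18, and the zinc importer Slc39a4 2.02-fold. Both missed the threshold without control array 1, 2 or 3, with adjusted p up to 0.0642 and 0.0695.

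Other differences of over 2-fold on both arrays also missed it. Rnase2a read 9.01, 7.29 and 6.08 on the controls and 4.73 and 4.64 at 2 weeks, with a spread among controls as wide as the difference. Igfbp1 read 11.04, 9.80 and 10.88, then 12.23 and 12.59 (adjusted p = 0.0527, limma), and passed without control array 2 (0.0456). Lpin1, a phosphatidate phosphatase, read 11.92, 11.23 and 11.46, then 8.47 and 10.14, and was 8.41-fold lower on replicate 1 and 2.63-fold lower on replicate 2 (adjusted p = 0.0603), and passed without replicate 2 (0.0376). In all 3 the groups did not overlap.

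A further set of uncalled genes lay much further from the controls on replicate 2 than on replicate 1. Igf2, the fetal growth factor, read 6.69, 6.68 and 6.76 on the controls, 6.69 on replicate 1 and 10.65 on replicate 2. The imprinted noncoding RNA Meg3 read 8.05, 7.73 and 7.69, then 8.71 and 11.74, and its neighbour Rian 4.75, 4.36 and 4.12, then 5.55 and 7.60. Replicate 1 was within the control range for Igf2. For Meg3 and Rian it was above the highest control, 1.84-fold and 2.20-fold above the control mean. Replicate 2 was 15.3-fold, 15.1-fold and 9.13-fold above the control mean for Igf2, Meg3 and Rian. None of the 3 passed (adjusted p = 0.386, 0.193 and 0.128, limma), and all 3 passed without replicate 1 (0.0379, 0.0268 and 0.0369). At 4 weeks they read 7.65 and 9.36, 9.96 and 11.33, and 7.03 and 8.24, above the controls on both arrays. Of the 18 fetal and imprinted genes, 1, Igf2r, was higher (1.85-fold); without control array 1, 2 or 3, 0 were, and without 2 week replicate 1 or 2, 7 and 2.

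Several uncalled sex-biased genes also lay further from the controls on replicate 2. Cyp2b13 read 4.67, 3.82 and 4.67 on the controls, 4.81 on replicate 1 and 9.14 on replicate 2, and Cyp2a22 read 4.67, 5.43 and 4.91, then 5.73 and 9.62. A1bg read 5.40, 5.30 and 5.53, then 5.70 and 8.93. These are more abundant in female liver, and none of them passed (adjusted p between 0.232 and 0.278, limma). Of the 28 female-biased genes measured, 14 were above the control mean on both arrays and 5 below it on both. The male-biased genes named here were lower on replicate 2. The steroid dehydrogenase Hsd3b5 read 10.29, 9.96 and 9.97, then 10.50 and 5.90, and Elovl3 11.01, 10.81 and 10.45, then 12.52 and 8.69. On replicate 1 both were above the highest control and on replicate 2 both were below the lowest. Bcl6, a repressor of female-biased genes, read 9.96, 10.02 and 9.82, then 9.53 and 7.41, and the organic anion carrier Slco1a1 12.13, 11.66 and 12.08, then 11.59 and 9.61. Replicate 1 was slightly below the controls in these 2 genes and replicate 2 far below.

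Over the 25 male-biased genes measured the median was -0.10 on replicate 1 and -1.06 on replicate 2, and 2, Moxd1 and Sult5a1, were lower. Without 2 week replicate 1 there were 10, and without replicate 2, or without any control array, there was 1. Over the 28 female-biased genes the medians were 0.04 and 0.49, with 1, Cyp2b9, higher; 4 were without 2 week replicate 1 and 0 in the other 4 fits. Cyp2b9 was high on both arrays, at 10.49 and 12.79 against 5.39, 6.50 and 7.38. Cyp2 genes have near-identical copies, so these values are uncertain as to the member. Of the growth hormone pathway, Stat5b rose 1.73-fold, from 8.97, 8.96 and 9.04 to 9.67 and 9.89, the only call among 17 genes.

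**Figure D4:**
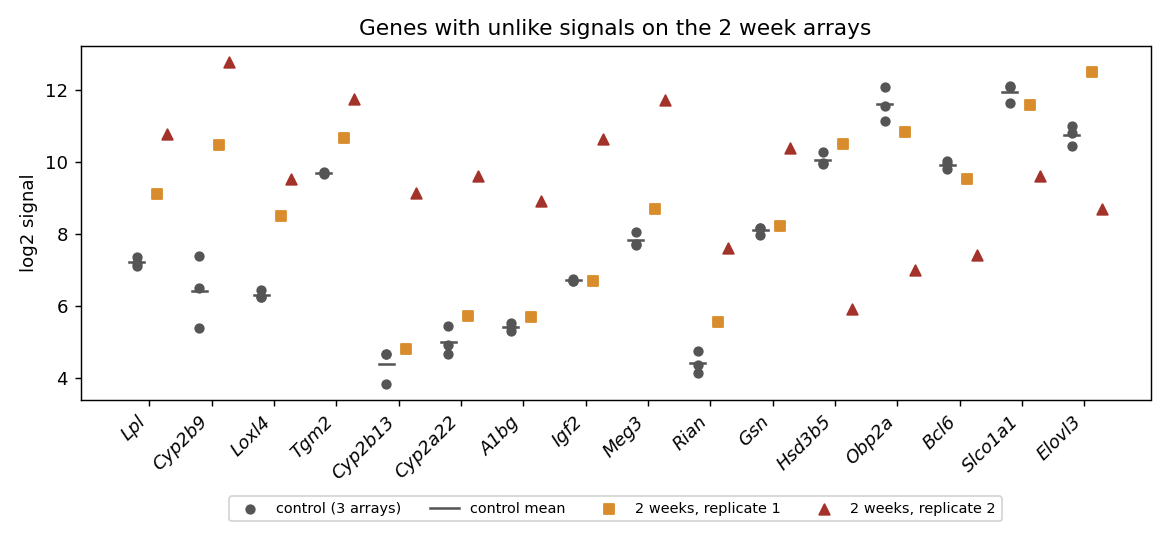
Log2 signal of 16 genes with unlike signals on the 2 week arrays, drawn as in the plot of the 38 genes. Replicate 1 (squares) lies near the controls for Igf2 (6.69) and Cyp2b13 (4.81) and replicate 2 (triangles) far from them (10.65 and 9.14); Lpl, Cyp2b9, Loxl4 and Tgm2 passed.

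Interferon-stimulated, cholesterol and respiratory chain genes also differed between the arrays, with 0 calls. The 31 interferon-stimulated genes had a median of -0.07 on replicate 1 and 0.38 on replicate 2 and 0 calls in limma. An unadjusted p under 0.05 was found in 9 of them, against 3862 of all 16819 genes. The DNA sensor Zbp1 read 6.76, 6.97 and 6.79, then 7.31 and 8.07, and Tlr3 5.82, 6.19 and 6.21, then 6.63 and 7.39, above the controls on both arrays without passing (adjusted p = 0.0988 and 0.0914, limma). The 19 cholesterol synthesis genes had medians of -0.01 and -0.27 and 0 calls, with 3 at an unadjusted p under 0.05. The 25 respiratory chain genes had medians of -0.08 and -0.29 and 0 calls, with 9 at an unadjusted p under 0.05. Among them Sdhd read 10.95, 10.90 and 11.04, then 10.51 and 9.70. The medians of all 3 lists lay further from 0 on replicate 2.

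**Figure D5:**
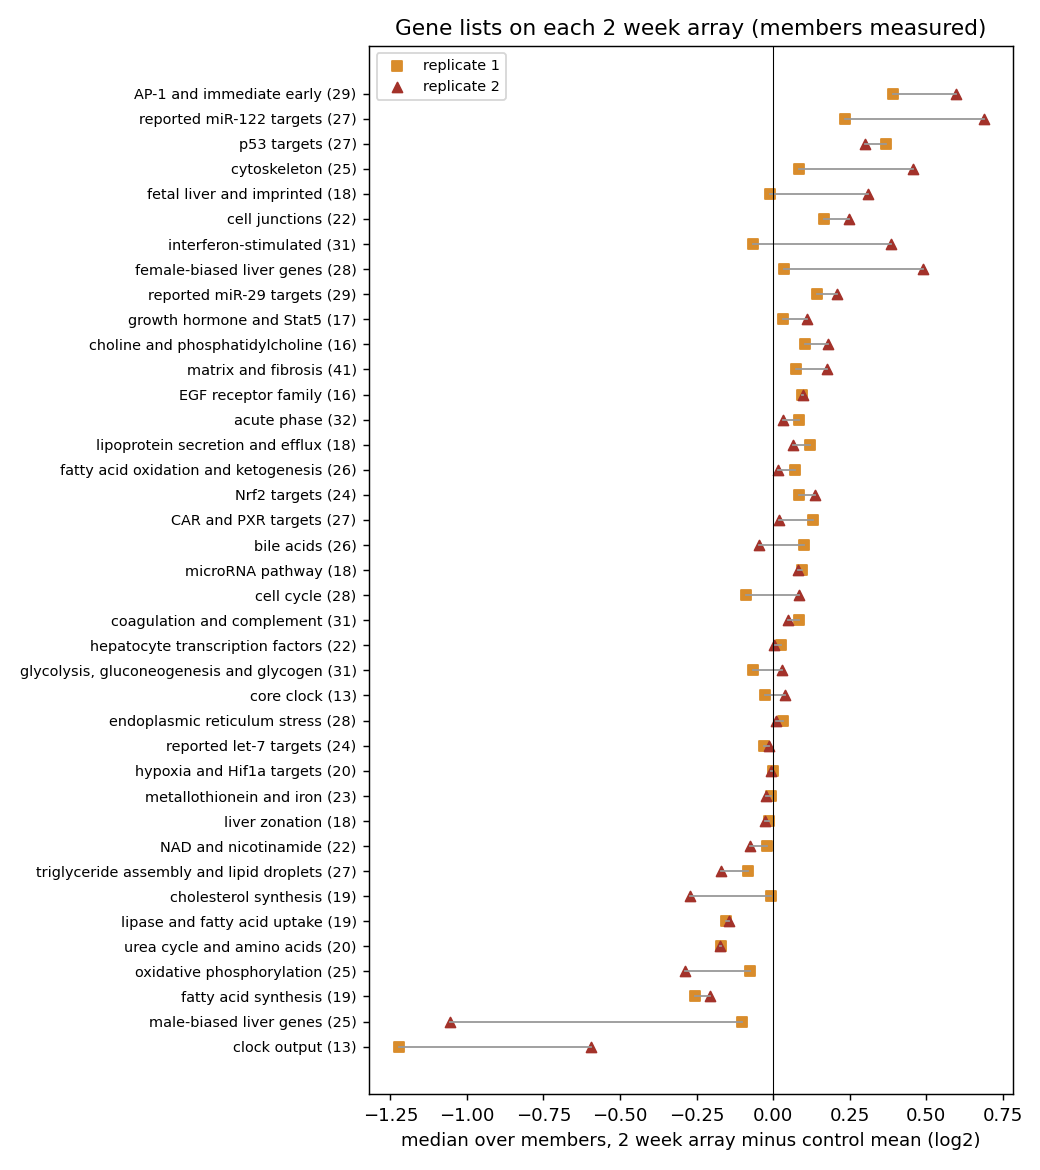
Median log2 difference from the control mean over the measured members of each gene list (number in brackets), with squares for 2 week replicate 1 and triangles for replicate 2. The male-biased genes lie at -0.10 and -1.06, and the clock output genes, at -1.22 and -0.59, are the list with the lowest median on replicate 1.

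Of 25 cytoskeleton genes, 2 were higher and 1 lower. The tubulin gene Tubb2a read 6.81, 6.83 and 5.93 on the controls and 8.72 and 9.39 at 2 weeks, and the keratin gene Krt18 rose 1.81-fold. The actin-binding profilin gene Pfn1 fell 1.37-fold. Of this list 0 members passed without control array 1, 2 or 3 or without 2 week replicate 2, and 7 were higher and 2 lower without 2 week replicate 1.

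Among the stress lists, that of Nrf2 held 24 measured genes, 4 of them regulators, with 2 higher and 0 lower. The regulator Nfe2l2, which encodes Nrf2, read 9.07, 9.37 and 9.09 on the controls and 10.37 and 10.39 at 2 weeks. It rose 2.30-fold. Among the targets only the autophagy adaptor Sqstm1 was called, with a rise of 1.48-fold. Of 28 endoplasmic reticulum stress genes, 1 was called, Herpud1, which fell 2.74-fold, from 13.03, 13.07 and 13.06 to 11.27 and 11.92, but missed the threshold in all 5 fits that left out an array (adjusted p 0.0851 to 0.154, limma). Of 27 p53 targets, 6 were higher and 0 lower, among them Trp53inp1 (2.65-fold), the receptor Eda2r (2.44-fold) and the DNA polymerase Polk (1.65-fold). The 6 include Ccng1 and Btg2, also counted in the miR-122 and AP-1 lists. As in every higher gene called, their 2 week arrays were above every control. Cdkn1a and Bax were not among the genes measured. Of the p53 targets 0, 1 and 0 passed without control array 1, 2 or 3, and 8 and 4 without 2 week replicate 1 or 2. Of 20 hypoxia genes measured, 5 of them factors such as Egln1 and the others targets, 3 were lower and 2 higher. Ndrg1 rose 4.19-fold and Kdm3a was also higher. The mitophagy receptor Bnip3 fell 1.72-fold and the oxygen sensor Egln1 1.61-fold, beside Pfkfb3, given above. Without control array 1, 2 or 3, 0 hypoxia genes were higher and 1, 0 and 0 lower.

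Between 4 and 2 weeks directly, 1 gene passed in limma, Nr1d1, at 11.14 and 11.01 against 8.27 and 8.59, and 1250 genes had an unadjusted p under 0.05. Nr1d2 read 9.55 and 9.55 at 4 weeks against 7.91 and 8.28 at 2 weeks, a difference of 1.46 that did not pass (adjusted p = 0.234, limma).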

How the data were processed

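RNA of 3 control livers, 2 livers at 2 weeks and 2 at 4 weeks was hybridised to 7 Affymetrix whole-transcript arrays, which the labels call biological replicates. Nothing in the labels says whether livers were pooled, and p-values measure the spread between these arrays. The values are log2 signals as deposited by the authors, 1 per probe set and array, and the scale was read from the values. GCOS 1.4 is named in the submitters' processing notes with no role. The normalization, the summarisation and the scan dates are not stated in the sources used here. The platform annotation gave 1 gene symbol to 17709 of 21093 probe sets, several to 187 and none to 3197. By gene number 17648 of the named ones matched RefSeq (GRCm38.p6), which served for names and sequences. Of the 16819 genes, 463 had more than 1 probe set.

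A model with the 3 groups was fitted with limma 3.58.1 in R 4.3.3 (lmFit, contrasts.fit, eBayes), with two-sided tests and Benjamini-Hochberg adjustment over all 16819 genes. A gene was called at an adjusted p under 0.05, and n = 3 and 2 throughout. The fit had 4 residual and 1.69 prior degrees of freedom. On simulated data it found 45.4% of log2 changes of 0.5 and 84.5% of log2 changes of 1, and 4.81% of its calls were false. Each gene was simulated with the same spread in all groups, whereas the measured 2 week arrays differed more than the control arrays did. No filter on dim genes was set. The number of arrays limits the precision.

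Genes were named by rule: Dicer1 and Lpl, the 20 largest called rises and falls whose groups did not overlap (predicted genes left out), the 10 smallest p-values, the 10 largest changes by the array that moved less, the 10 widest gaps between the 2 week arrays, the 10 largest uncalled differences, and leading members of each gene list. All genes of the microRNA pathway and clock lists could be named. The genes and the 51 gene lists (965 of 1098 entries measured) were chosen with earlier results of these data known. Alternatives were each array left out, the 2 groups alone, a replicate block, quantile and median scaling, dim genes removed, probe sets averaged, a trended robust prior, array weights and a 2-fold minimum.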

Additional observations from a re-analysis of the deposited data

Results flagged for a closer look

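Nr1d1, a receptor that represses the clock gene Arntl, differed between 4 and 2 weeks. The control arrays read 9.11, 9.23 and 9.08, the 2 week arrays 8.27 and 8.59, and the 4 week arrays 11.14 and 11.01. The difference of 4 weeks minus 2 weeks was 2.65 on the log2 scale (SE 0.12, adjusted p = 0.0155, limma). It was the only gene that passed that comparison, in which both groups share the controls only through the estimate of the spread. At 2 weeks it was 0.71 below the control mean and at 4 weeks 1.94 above it. The hour of harvest is not stated in the labels.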

How the results depend on the processing

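No called gene changed sign under an alternative that still tested it, and leaving out dim genes removed some of the 997. In the fits that left out an array a called gene could not change sign, because its groups did not overlap. Leaving out 1 array gave 24 to 1091 higher and 17 to 1077 lower genes. The fit to the 2 groups alone gave 171 and 105. Without the dimmest genes 868 were higher and 672 lower, array weights gave 276 and 163, and a 2-fold minimum left 96 and 52. Quantile scaling gave 666 and 550 and median centring 697 and 540. With the replicate block 0 genes were higher and 0 lower (limma, 3160 at an unadjusted p under 0.05, 2 residual degrees of freedom). Same-numbered arrays correlated between -0.065 and 0.111 in their deviations from the group means. In a group of 2 arrays the deviations mirror each other, so these values cannot decide whether the numbers pair the samples. Of the genes named, 3 changed sign without 2 week replicate 2, and over the fits that left out an array Elovl3 ran from -2.07 to 1.76, Hsd3b5 from -4.17 to 0.43 and Igf2 from -0.019 to 3.94. With 2 arrays at 2 weeks and no detection calls, dim genes have no stated lower limit, and a lone 2 week array is assumed to vary like the other groups.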
